A study of Mus musculus with 21 samples.

Results

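The nuclear-encoded genes of the mitochondrial respiratory chain were followed in IgA+ plasma cells (PCs), the cells of the gut wall that secrete IgA. The members were the protein-coding genes named Nduf (complex I), Sdha to Sdhd (complex II), Uqcr or Cyc1 (complex III) and Cox4 to Cox8 (complex IV) with a total of 10 or more counts over all libraries. Of 77 protein-coding genes with such names 73 met the minimum, among 20256 genes that did so and 53801 genes in the deposited table. The names also take in 8 assembly factors of complex I (Ndufaf genes), which are not part of the finished complex, and Cox7a2l, whose rise at ZT12 in control mice was known when the set was chosen.

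The data were bulk RNA-seq of CD138+ IgA+ PCs sort-purified from the small-intestinal lamina propria, 1 library per mouse, 21 mice on a C57BL/6 background. The 12 control mice were Mb1+/+ x Arntl fl/fl littermates, 6 taken at ZT0 (lights on) and 6 at ZT12 (lights off), and the 9 knockout mice were Mb1 Cre/+ x Arntl fl/fl, 4 at ZT0 and 5 at ZT12. All mice therefore carried the floxed Arntl gene, which encodes the clock protein Bmal1, and Cre was present in the knockout mice alone. Mb1-Cre sits in the Cd79a gene and acts throughout the B cell lineage, so that Arntl is lost long before a cell becomes a PC and 1 copy of Cd79a is disrupted. The age of the mice is not given in the sources used here. Genotypes were read from the sample titles, since 8 of 9 knockout samples list the control genotype in their genotype field.

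Libraries held 14471018 to 22785835 counts, of which 25558 to 46387 fell on the members. The 10 PC markers examined were detected, with Igha, the IgA heavy chain, at a median of 277928 CPM (counts scaled to library size with edgeR's TMM factors) and Jchain at 48040 CPM in control ZT0 mice. By RT-PCR the paper reports efficient deletion of Arntl in IgA+ PCs of this knockout. From RNA-seq it also reports that the time-of-day expression of other clock genes was severely disrupted. The counts here are totals over the whole Arntl gene, a measure unlike RT-PCR, and do not test the deletion. In the counts Arntl lay at 6.83 to 8.36 CPM in control ZT0 mice and at 4.08 to 6.47 CPM in knockout ZT0 mice. The 2 ranges did not overlap, although this difference was not called (edgeR, unadjusted p = 0.000486, adjusted p = 0.926). At ZT12 Arntl lay at 4.00 to 5.56 CPM in control and 3.11 to 4.93 CPM in knockout mice, which overlapped (edgeR, adjusted p = 0.678). Cd79a was 163 to 276 CPM in the 9 knockout mice and 386 to 586 CPM in the 12 control mice, and was called lower in the knockout at both times. Immunoglobulin genes took 51.5% to 63.6% of the counts. In 4 libraries (control ZT12 replicates 2, 4 and 5 and knockout ZT0 replicate 3) they took 59.1% or more, and in the other 17 at most 55.7%. These 4 libraries stood apart for the members as well, so the median differences of the members are given with and without them. In bulk RNA, fewer cells of a type and less RNA per cell cannot be told apart.

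The respiratory chain passes electrons from NADH (through complex I) and succinate (through complex II) to ubiquinone, complex III and cytochrome c, and finally to oxygen at complex IV. Complexes I, III and IV pump protons that drive ATP synthase. Most subunits are encoded in the nucleus and imported, while a small set at the catalytic core of complexes I, III and IV is encoded in mitochondrial DNA. Plasma cells draw on mitochondrial respiration to survive and to sustain antibody secretion.

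Only 3 members passed the test between ZT12 and ZT0 in control mice, and these were Cox7a2l, Ndufa6 and Uqcrh, each higher at ZT12. Their promoters are shown because the members that the results turn on can be compared there with each other. Cox7a2l (ENSMUSG00000024248, chr17:83501919-83514333, minus strand) encodes a relative of the complex IV subunit Cox7a2 that helps to join complexes III and IV into a supercomplex. C57BL/6 mice carry a short form of this protein with reduced supercomplex activity. Ndufa6 (ENSMUSG00000022450, chr15:82350140-82354322, minus strand) encodes an accessory subunit of complex I, and Uqcrh (ENSMUSG00000063882, chr4:116066965-116075071, minus strand) encodes the hinge protein of complex III, which lies beside cytochrome c1. The 250 bases before each RefSeq start (GRCm38.p6, minus strand, 5′ to 3′) are those of chr17:83514334-83514583 for Cox7a2l, chr15:82354292-82354541 for Ndufa6 and chr4:116075071-116075320 for Uqcrh. Capitals mark a match to 1 of 3 motifs searched on both strands: the E-box CACGTG bound by Bmal1 and Clock, the core of the NRF1 site GCATGCGC, and the ETS core CCGGAAGT bound by GABP.
Cox7a2l: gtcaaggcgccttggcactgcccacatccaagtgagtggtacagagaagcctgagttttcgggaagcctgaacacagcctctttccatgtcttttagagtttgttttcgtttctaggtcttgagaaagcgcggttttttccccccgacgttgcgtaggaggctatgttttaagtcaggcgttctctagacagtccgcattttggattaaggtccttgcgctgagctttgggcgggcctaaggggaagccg
Ndufa6: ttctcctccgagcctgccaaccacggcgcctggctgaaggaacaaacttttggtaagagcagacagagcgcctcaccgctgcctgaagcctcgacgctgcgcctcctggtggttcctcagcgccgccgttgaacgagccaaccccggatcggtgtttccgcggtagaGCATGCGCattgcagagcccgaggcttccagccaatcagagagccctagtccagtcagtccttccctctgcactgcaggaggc
Uqcrh: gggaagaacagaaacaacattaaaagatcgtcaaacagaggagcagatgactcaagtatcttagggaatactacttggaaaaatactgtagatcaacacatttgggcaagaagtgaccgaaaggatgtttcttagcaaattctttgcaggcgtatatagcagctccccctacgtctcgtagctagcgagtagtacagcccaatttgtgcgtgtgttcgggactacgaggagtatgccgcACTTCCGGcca
The Ndufa6 promoter held 1 NRF1 core, the Uqcrh promoter 1 ETS core on the reverse strand (read as ACTTCCGG), and the Cox7a2l window none of the 3 motifs. Of the 73 members 58 had a promoter in the RefSeq table. The shares that follow are of genes with a match anywhere in its promoter windows. Those windows run past the start, beyond the 250 bases printed here. The NRF1 core was present in 9 of the 58 (15.5%), against 3.05% of all 27025 genes there. The E-box was present in 2 (3.45%, Ndufa7 and Ndufv1), against 8.09% of all those genes, and the ETS core in 3 (5.17%), against 4.31%. A match describes the letters only.

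The level of a member, as mean CPM per kb of gene length over the 21 mice, varied within each class, and the common subunits of complex IV, complex III and the core and accessory subunits of complex I overlapped in range while their medians differed. The common subunits of complex IV had the highest class median, 34.4 CPM per kb, and ranged from 9.22 for Cox6c to 137 for Cox6a1, the isoform used outside striated muscle. Complex III had a median of 21.4 CPM per kb and complex II of 19.98, with Sdha, the flavoprotein that oxidises succinate, at 20.7. The core subunits of complex I, which carry its flavin and iron-sulfur clusters, had a median of 18.2 CPM per kb, from 3.19 for Ndufs1 to 36.6 for Ndufs8. The 29 accessory subunits of complex I had a median of 11.4 CPM per kb and the largest ratio of highest to lowest of any class, from 0.661 for Ndufb2 to 127 for Ndufa1. These extremes depend on the deposited gene lengths, 5628 bases for Ndufb2 and 419 for Ndufa1. Before division by length the 2 had means of 3.72 and 53.3 CPM. Likewise Cox6c, with a length of 3567 bases, had a mean of 32.9 CPM, above the 23.1 CPM of Cox5a. Ndufb2 also overlaps Braf, a gene with 11792 counts on the opposite strand. Cox7a2l, at 34.4 CPM per kb, was the twelfth highest of the 73.

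**Figure D1:**
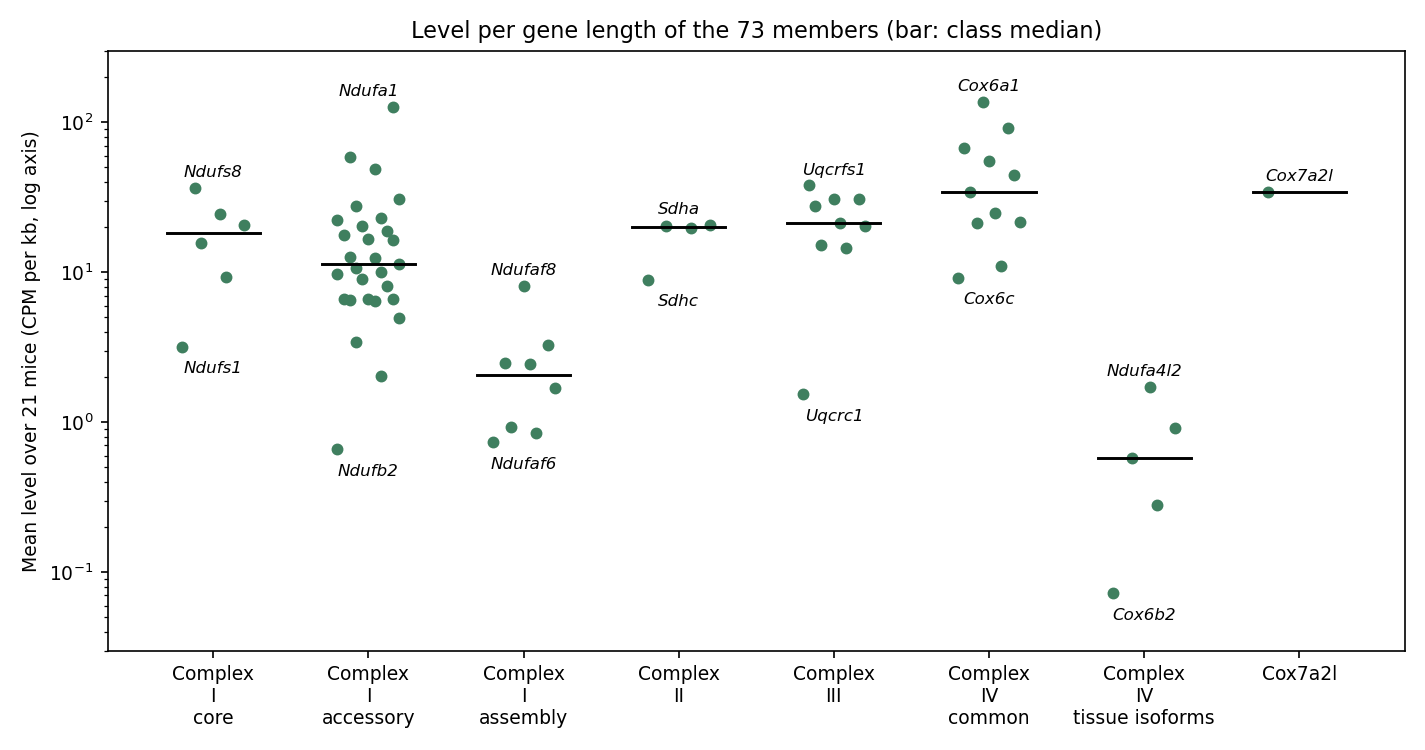
Mean normalized level over 21 mice divided by the deposited gene length (CPM per kb, log axis) for each of the 73 members by class, with class medians as bars and the highest and lowest member of each class named. Common complex IV subunits lie highest (median 34.4), complex I assembly factors (2.06) and tissue isoforms of complex IV (0.574) lowest.

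Assembly factors of complex I were low, with a median of 2.06 CPM per kb, from 0.737 for Ndufaf6 to 8.12 for Ndufaf8. The 5 tissue isoforms of complex IV that met the minimum were lower still, with a median of 0.574 CPM per kb. These are Cox6a2 and Cox7a1 of heart and skeletal muscle, Cox6b2 of testis, Cox4i2 of lung, and Ndufa4l2, a relative of the complex IV subunit Ndufa4 that is induced by low oxygen. Cox6b2 had 28 counts in all 21 libraries together, and Ndufa4l2, the highest, had 633. Of the 4 genes under the minimum, Cox7b2, Cox8b and Cox8c, also isoforms of other tissues, had 0 counts. The fourth was Ndufs3, a core subunit of complex I, with 2 counts in all libraries. The other 6 core subunits ranged from 3.19 to 36.6 CPM per kb. Kbtbd4, on the opposite strand and overlapping Ndufs3, had 0 counts. The sources used here do not state whether reads were counted by strand or how reads in overlapping genes were assigned, and 24 members overlap another gene with 10 or more counts, 23 of them a gene on the opposite strand.

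Members differed widely in how steady they were between mice of 1 group. The within-group SD of log2 CPM had a median of 0.28 over the 73 members. Sdha was the steadiest, with an SD of 0.07 and a range of 78.2 to 93.8 CPM over the 21 mice. Among the well-expressed members, a mean log2 CPM over 3, the median SD was 0.26 (57 members), against 0.21 for the 7129 genes above that level.

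Uqcrc1, a core protein of complex III, was the least steady member after the tissue isoform Cox4i2, with a within-group SD of 1.25 on the log2 scale. In control ZT0 mice it was 15.8, 2.22, 1.64, 1.79, 15.0 and 13.5 CPM, and in control ZT12 mice 7.82, 1.94, 2.21, 5.85, 2.83 and 17.1 CPM. In knockout ZT0 mice it was 3.74, 14.0, 1.87 and 2.04 CPM, and in knockout ZT12 mice 2.84, 4.99, 4.51, 8.82 and 3.11 CPM. Every group held mice at several times the level of others, so that the groups overlapped throughout, and the highest mouse was 10.4 times the lowest. The control ZT12 against ZT0 difference was -0.41 ± 0.71 (SE) on the log2 scale (edgeR, adjusted p = 0.812). No other complex III subunit had an SD over 0.40.

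Ndufa12, an accessory subunit of complex I, was the next least steady outside the tissue isoforms, with an SD of 0.69. It was 14.9 CPM in knockout ZT0 replicate 1 and 14.5 CPM in replicate 3, but 5.04 and 6.21 CPM in replicates 2 and 4. In the 6 control ZT0 mice it lay between 3.70 and 7.97 CPM, with a median of 4.24. Its knockout against control difference at ZT0, 1.02 ± 0.42 on the log2 scale, had the smallest unadjusted p of the members in that comparison and was not called (edgeR, adjusted p = 0.926).

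**Figure D2:**
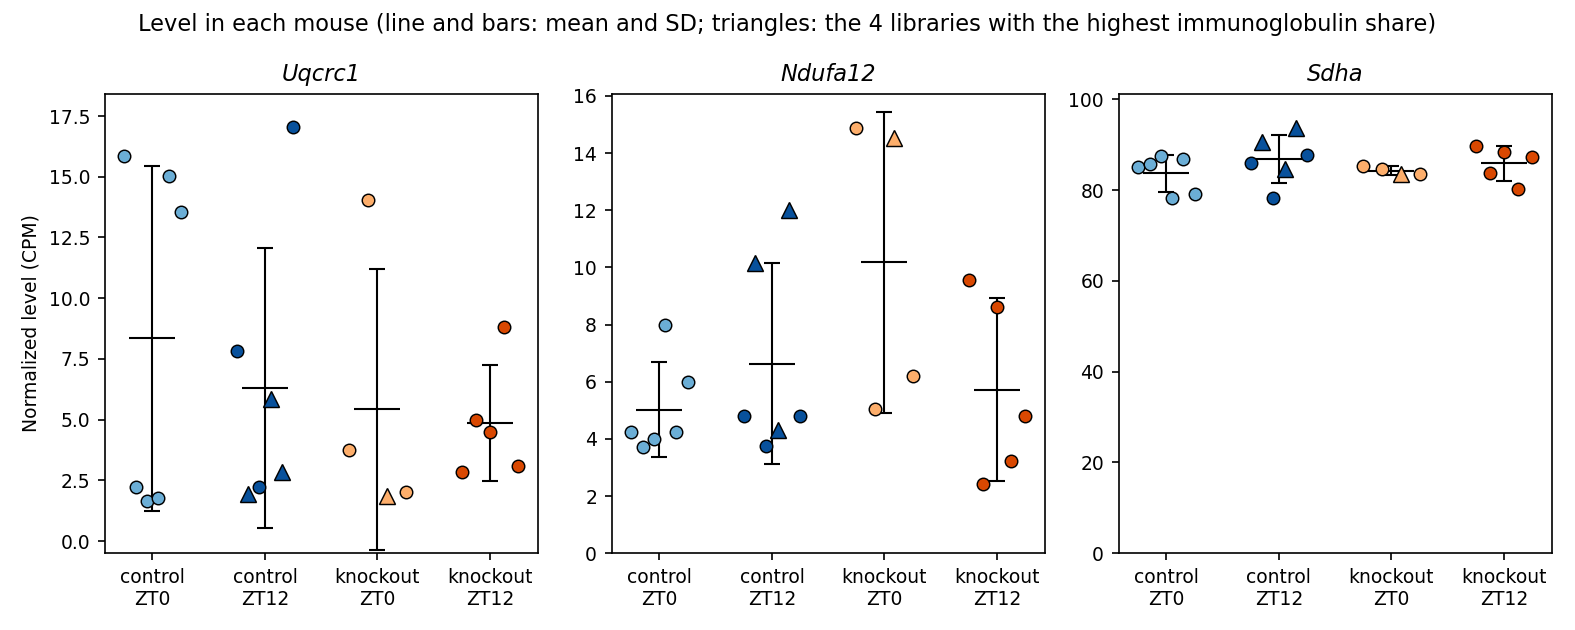
Normalized level (CPM) of Uqcrc1, Ndufa12 and Sdha in each mouse by group, with mean and SD, and triangles for the 4 libraries with the highest immunoglobulin share. Uqcrc1 ranged from 1.64 to 17.1 and Ndufa12 from 2.43 to 14.9 within overlapping groups, while Sdha stayed between 78.2 and 93.8.

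The first comparison asked which members differed between ZT12 and ZT0 in control mice. As stated, 3 of 73 members (4.11%) were called at an adjusted p under 0.05, all 3 higher at ZT12, beside 1.73% of all 20256 genes in either direction and 0.948% in the higher direction. No member was called lower. The share is not independent of the choice of the set, since 1 of the 3 calls is Cox7a2l. Without it 2 of 72 members (2.78%) were called higher.

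Cox7a2l was 26.0, 28.1, 24.9, 29.7, 27.7 and 26.5 CPM in control ZT0 mice and 47.4, 90.0, 53.3, 65.9, 40.5 and 41.3 CPM in control ZT12 mice. Every ZT12 mouse lay above every ZT0 mouse. The fitted difference was 1.06 ± 0.16 (SE) on the log2 scale, a 2.08-fold higher level (edgeR, adjusted p = 0.00491). This rise was part of the choice of the set and is given as a description. Calls of Cox7a2l in other fits of these control mice are no separate evidence for it. Its paralog Cox7a2, a subunit of complex IV in most tissues, differed by 0.39 ± 0.13 (edgeR, adjusted p = 0.127), from a median of 20.7 CPM at ZT0 to 27.4 CPM at ZT12 with overlapping groups. The muscle paralog Cox7a1 had 162 counts in all and was at most 2.98 CPM.

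Ndufa6 lay between 15.1 and 20.8 CPM in control ZT0 mice, with a median of 18.4, and between 21.1 and 40.1 CPM in control ZT12 mice, with a median of 26.1. The groups did not overlap. The difference was 0.57 ± 0.13, 1.48-fold (edgeR, adjusted p = 0.0275). Cox7a2l and Ndufa6 were the only members whose ZT12 mice all lay above the ZT0 mice, 2.74% of members beside 0.745% of all genes, and without Cox7a2l it was 1 of 72 (1.39%).

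Uqcrh lay between 25.9 and 31.2 CPM at ZT0, with a median of 26.6, and between 26.9 and 66.7 CPM at ZT12, with a median of 42.0. The groups overlapped, since replicate 6 at ZT12 (26.9 CPM) and replicate 1 (30.3 CPM) lay within the ZT0 range. The difference was 0.63 ± 0.16, 1.55-fold (edgeR, adjusted p = 0.0426). A processed pseudogene on the opposite strand, Gm12854, overlaps Uqcrh and held 470 counts against its 11802.

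**Figure D3:**
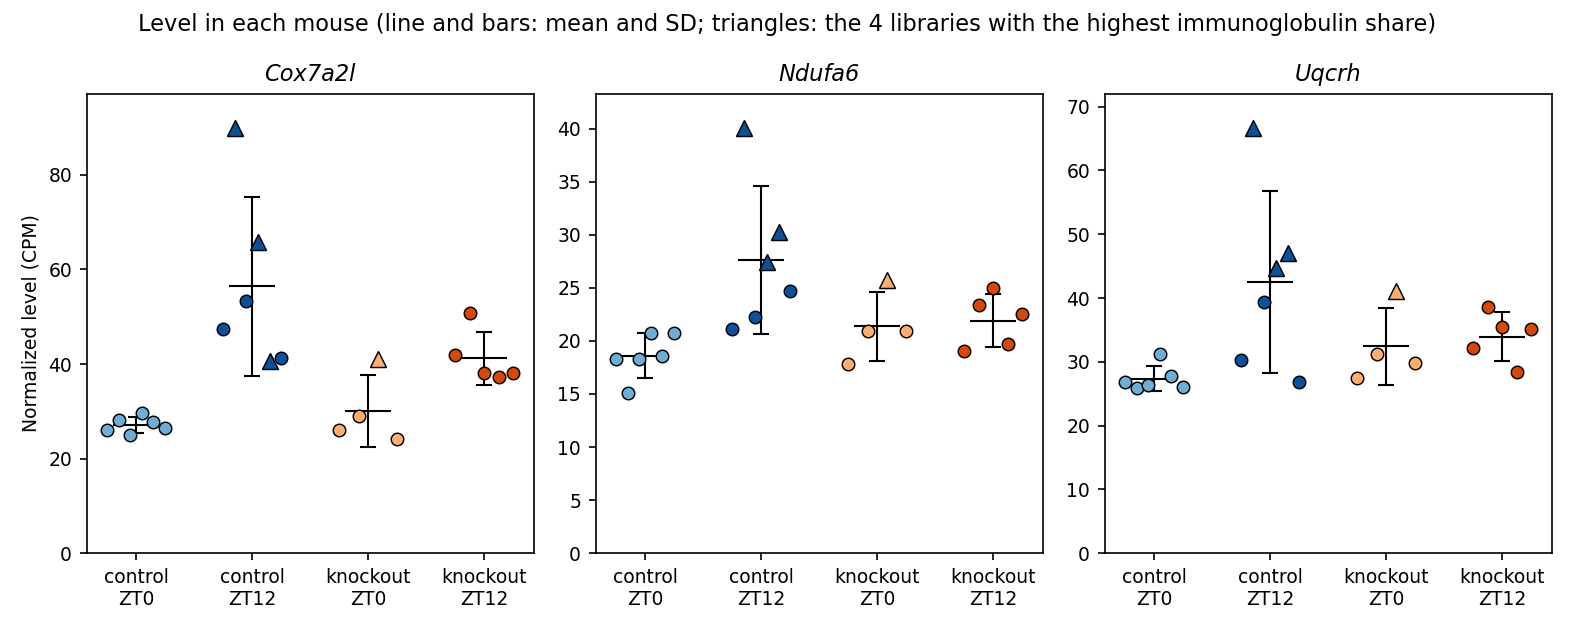
Normalized level (CPM) of Cox7a2l, Ndufa6 and Uqcrh in each mouse by group, with mean and SD, and triangles for the 4 libraries with the highest immunoglobulin share. Cox7a2l is at 40.5 to 90.0 in control ZT12 mice, above all 6 control ZT0 mice, and the highest mouse of each gene is a triangle.

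Below the threshold, most subunits leaned the same way. The fitted difference was above 0 for 65 of 73 members (89%), beside 50.6% of all genes, and its median was 0.33 on the log2 scale, beside 0.01 over all genes. An unadjusted p under 0.05 with a higher level was reached by 34 members, beside 9.19% of all genes, and by none with a lower level, beside 8.86%. The 29 accessory subunits of complex I were all above 0, with a median of 0.36, as were all 11 common subunits of complex IV, with a median of 0.39. Complex III had a median of 0.33, the core of complex I 0.20 and complex II 0.15. In 36 members shorter than the median member length of 1363 bases the median difference was 0.37, and in 36 longer ones 0.20. All genes tested had a median length of 3093 bases.

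In complex II, the common subunits of complex IV and the core of complex I, the member with the smallest p was not called. Sdhd, a membrane anchor of complex II, lay at 19.7 to 24.1 CPM at ZT0 (median 20.8) and 22.8 to 34.4 CPM at ZT12 (median 26.8), a difference of 0.36 ± 0.11 (edgeR, adjusted p = 0.0726). Cox5a of complex IV lay at 17.4 to 22.5 CPM at ZT0 (median 19.99) and 18.1 to 36.6 CPM at ZT12 (median 26.2), a difference of 0.44 ± 0.13 (adjusted p = 0.0755). Ndufs8, an iron-sulfur subunit of complex I, lay at 29.3 to 33.6 CPM and 29.4 to 53.0 CPM, a difference of 0.35 ± 0.12 (adjusted p = 0.120). In all 3 the ZT12 mice spread further than the ZT0 mice, and the groups overlapped.

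Several members were near 0 in the same comparison. Sdha differed by 0.05 ± 0.07, Ndufs1 by 0.07 ± 0.09 and Cyc1, the cytochrome c1 of complex III, by 0.02 ± 0.10, with edgeR adjusted p of 0.740, 0.726 and 0.942. Of the 8 assembly factors of complex I 6 were below 0, with a class median of -0.18 and no call. Ndufaf6, the furthest, was 0.849 to 1.42 CPM at ZT0 and 0.269 to 1.24 CPM at ZT12, a difference of -0.81 ± 0.42 (edgeR, adjusted p = 0.316). The tissue isoforms had wide errors: Cox4i2 differed by 2.86 ± 1.16 (edgeR, adjusted p = 0.2003), and its 5.35 CPM in control ZT12 replicate 2 was its highest value in the series, beside 0 in replicates 5 and 6.

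**Figure D4:**
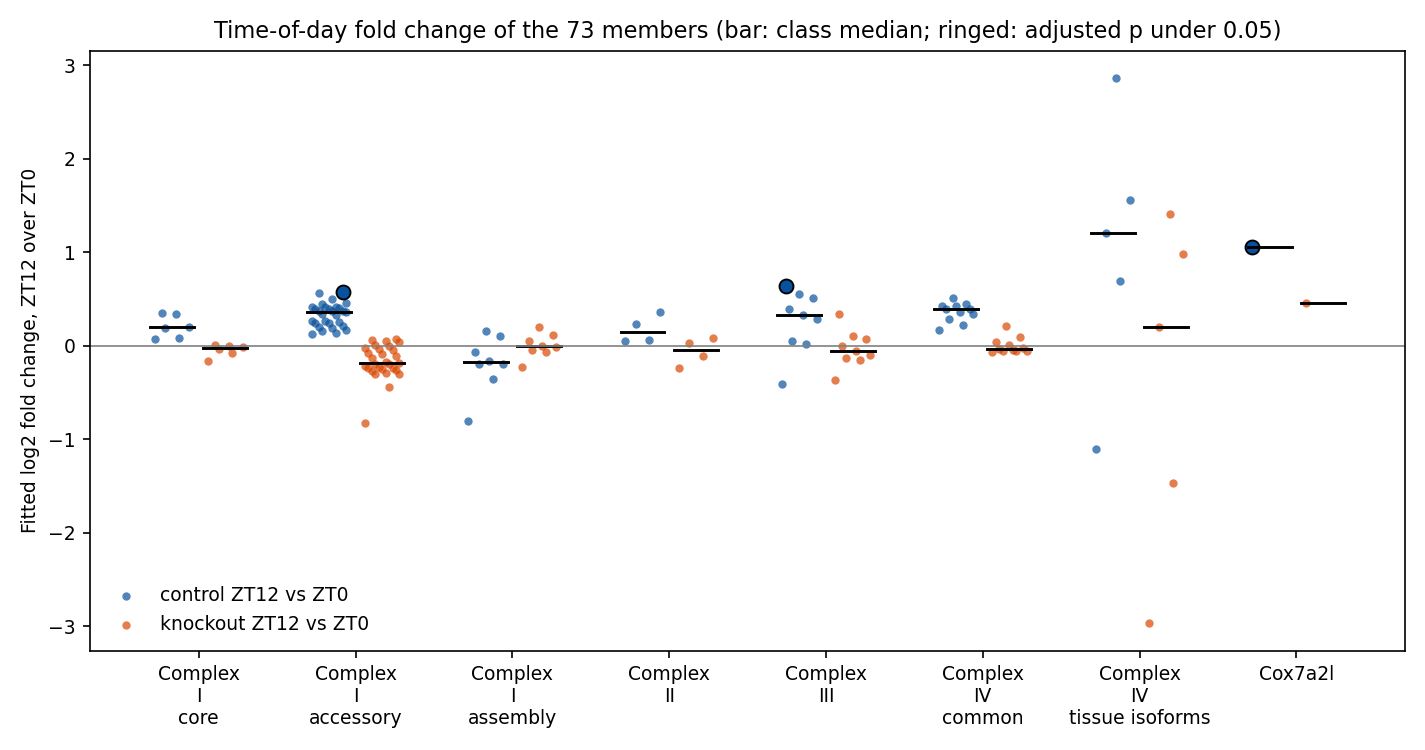
Fitted log2 fold change of ZT12 over ZT0 for each of the 73 members by class, in control mice (blue) and knockout mice (orange), with class medians as bars and members with an adjusted p under 0.05 ringed. In control mice class medians run from -0.18 (assembly factors) to 1.21 (tissue isoforms, few counts), with Cox7a2l at 1.06, and no member is ringed in knockout mice.

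The lean of the members moved with the libraries of high immunoglobulin share. The summed level of the 73 members was 1598 to 1795 CPM in control ZT0 mice (median 1704). In control ZT12 mice it was 1632, 2819, 1929, 2274, 2393 and 1699 CPM in replicates 1 to 6. In knockout ZT0 mice it was 1749, 1698, 2328 and 1724 CPM, and in knockout ZT12 mice 1653, 1910, 1898, 1645 and 2001 CPM. The 4 highest sums, 2274 to 2819 CPM, belonged to the same 4 libraries in which immunoglobulin genes took 59.1% to 63.6% of the counts, 3 of them control ZT12 and 1 of them knockout ZT0. The other 17 libraries lay between 1598 and 2001 CPM. The TMM factors were lowest in the same 4 libraries, 0.722 to 0.908 against 0.981 to 1.15 in the others, and a low factor raises the CPM. Scaled to all counts without these factors, the members summed to 1947 to 2119 CPM in the 4 libraries and 1628 to 2121 CPM in the others, and the ranges overlapped, with the highest value in knockout ZT12 replicate 5. Scaled to the counts outside immunoglobulin genes, a total that is itself smaller where the immunoglobulin share is high, they summed to 4810 to 5588 CPM in the 4 and 3621 to 4589 CPM in the others. On the TMM scale, for 63 of the 73 members the highest of the 21 mice was 1 of these 4, and for 42 of them it was control ZT12 replicate 2.

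**Figure D5:**
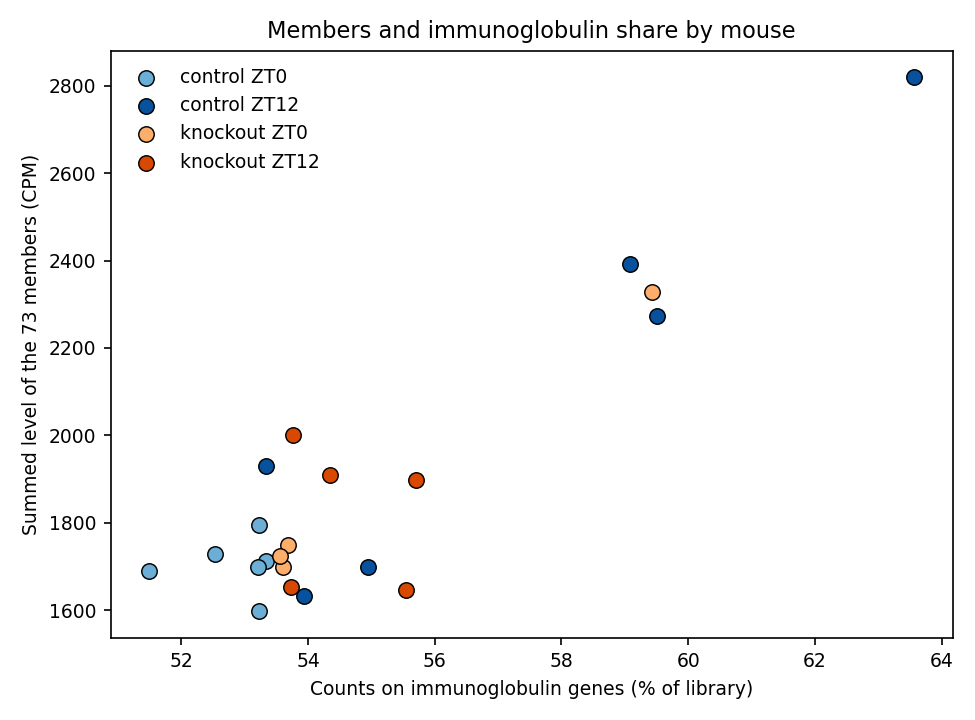
Summed level of the 73 members (CPM) against the share of counts on immunoglobulin genes (%) in each of 21 mice, coloured by group. The 4 libraries at 59.1% or more, 3 of control ZT12 and 1 of knockout ZT0, lie at 2274 to 2819, and the other 17 at 1598 to 2001.

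Leaving out these 4 libraries was an alternative chosen after the data were seen. It drops replicates 2, 4 and 5 of the 6 control ZT12 mice, and the libraries dropped also had the highest member sums. A smaller difference at ZT12 was therefore built in, and with fewer mice a call is harder to reach. Without them the median difference of the members between control ZT12 and ZT0 was 0.01 on the log2 scale, with 40 of 73 above 0. Accessory subunits of complex I then had a median of 0.03 with 19 of 29 above 0, and common subunits of complex IV a median of 0.00 with 6 of 11 above 0. All 8 assembly factors were below 0, with a median of -0.26. Ndufa6 (0.29, edgeR adjusted p = 0.441) and Uqcrh (0.24, adjusted p = 0.536) were no longer called. Cox7a2l remained called, at 0.81 (edgeR, adjusted p = 0.000544), the sole member among 9 genes called in all. With the immunoglobulin share as a covariate in all 21 libraries no member and no gene was called. The median of the members was -0.04 in that fit, and Cox7a2l stood at 0.66 (edgeR, adjusted p = 0.123). In control mice the share itself differed by time without overlap, 51.491% to 53.345% at ZT0 and 53.346% to 63.57% at ZT12. That fit therefore cannot separate the share from time of day in control mice. What sets the 4 libraries apart was not tested.

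Scaling also moved the medians. When libraries were scaled by their totals alone, the median of all genes shifted from 0.01 to -0.20 in this comparison. That of the members shifted from 0.33 to 0.09, so the members still lay above all genes. When each library's trend on gene length was removed, the median of the members was 0.08. The same 3 members were called, among 317 genes (1.56%), with Cox7a2l at 0.78 (edgeR, adjusted p = 0.000312). DESeq2 called 14 of 73 members, all higher, among 1073 genes (5.3% of 20256). It gave an adjusted p to 11599 of the 20256 genes, so the share among genes it could call was larger.

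Single libraries decided the smaller calls. Cox7a2l was called in each of 21 fits that left out 1 library, with differences of 0.87 to 1.13. These fits reuse the values by which it was chosen and only describe how the rise depends on single libraries. It was the sole member called without control ZT0 replicate 1, 2, 3 or 5 or control ZT12 replicate 2, 4 or 5. Without control ZT12 replicate 1 the count rose to 16 members and without control ZT12 replicate 6 to 12, both being libraries with low member sums. The number of all genes called in these fits is not given here, so the counts cannot be read as particular to the members. Uqcrh was also lost without control ZT0 replicate 4 or 6, control ZT12 replicate 3, knockout ZT0 replicate 4 or knockout ZT12 replicate 1, 3 or 5.

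Markers of other cells were measured beside these results. The summed level of 22 epithelial markers was 53.9 to 384 CPM in control ZT0 mice, 83.4 to 1248 CPM in control ZT12 mice, 80.9 to 106 CPM in knockout ZT0 mice and 72.0 to 910 CPM in knockout ZT12 mice, and 20 of the 22 had a fitted difference above 0 in control mice, with none called. Their median difference was 2.27 on the log2 scale, and 11 had an unadjusted p under 0.05 with a higher level, beside 9.19% of all genes. Epcam had medians of 58.9 CPM at ZT0 and 76.4 CPM at ZT12 in control mice, a large part of the sums. Muc2, a defining marker of goblet cells, did not meet the count minimum and had a median of 0 in each group. Tff3, also in the list, had medians of 0.141 CPM at ZT0 and 1.70 CPM at ZT12 in control mice. Of the 4 libraries with a high immunoglobulin share, control ZT12 replicate 5 had the highest epithelial sum of all 21, 1248 CPM, while the other 3 had 92.8 to 195 CPM. When the mean epithelial marker level was a covariate 1 member, Cox7a2l, was called in control mice (1.15, edgeR adjusted p = 0.00528). It was among 111 genes called in all (0.548%), and the median of the members was 0.24. T cell markers summed to 12.7 to 34.2 CPM and myeloid markers to 18.5 to 105 CPM over all mice, and none of them was called in this comparison. Markers of other B lineage cells summed to 141 to 603 CPM, mostly Ighm, with none called in it. The part of these cells in the members' levels was not tested further.

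In knockout mice the comparison asked whether members differed by time of day without Bmal1 in the B lineage. No member was called by edgeR, and no gene at all (0%). Unadjusted p-values under 0.05 were found for 1 member higher (Cox7a2l) and 3 lower (Cox6b2, Ndufc2 and Sdhb), beside 3.91% and 4.09% of all genes. DESeq2 called no member either, among 64 genes. The median difference was -0.05, and 22 of 73 members were above 0, beside 50.7% of all genes. Knockout ZT0 replicate 3 weighed on this value, since without it the median was 0.05.

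Cox7a2l was 26.0, 29.0, 41.1 and 24.1 CPM in knockout ZT0 mice and 41.9, 50.7, 38.1, 37.3 and 38.2 CPM in knockout ZT12 mice. The ZT12 mice lay above the ZT0 mice except replicate 3 at ZT0, 1 of the 4 libraries with a high immunoglobulin share. The fitted difference was 0.46 ± 0.19, 1.37-fold, with a 95% interval of 0.09 to 0.83 (edgeR, adjusted p = 0.613). A two-sided exact permutation test of the mean log2 CPM gave p = 0.0635, and 0.205 after Benjamini-Hochberg adjustment over 9 such tests of the 3 genes. Without the 4 libraries the difference was 0.64, and Cox7a2l was the sole member called in knockout mice (edgeR, adjusted p = 0.0297), among 3 genes. Of the knockout mice this drops ZT0 replicate 3 alone, the mouse that lay against the rise. The removal was chosen after the data were seen, so the call is given as a description.

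Ndufa6 was 17.9, 20.9, 25.7 and 20.98 CPM in knockout ZT0 mice and 19.0, 23.4, 24.9, 19.7 and 22.6 CPM in knockout ZT12 mice. Uqcrh was 27.5, 31.3, 41.1 and 29.8 CPM, and 32.1, 38.6, 35.5, 28.5 and 35.2 CPM. Both overlapped between the times, and for both the highest ZT0 mouse was replicate 3. Their differences were 0.04 ± 0.15 and 0.07 ± 0.18, with 95% intervals of -0.26 to 0.33 and -0.29 to 0.42.

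Whether the time-of-day difference itself differed between genotypes was tested as an interaction. No member and no gene was called by edgeR (0%). The interaction of Cox7a2l was -0.60 ± 0.25, with a 95% interval of -1.08 to -0.11 (edgeR, adjusted p = 0.442). A loss of its time-of-day difference in the knockout was thus not shown. The interaction subtracts the control rise by which Cox7a2l was chosen, which favours a value below 0. The interval is therefore a description only. Ndufb5, a membrane-arm subunit of complex I, had the smallest p of the members, with an interaction of -0.66 ± 0.22 (edgeR, adjusted p = 0.442). At an unadjusted p under 0.05 there were 29 members with an interaction below 0, beside 5.63% of all genes, and none with one above 0, beside 5.18%. Below 0 means a ZT12 against ZT0 difference that was lower in knockout than in control mice, not always a smaller one: Cox6b2, with 28 counts in all, had 1.21 in control and -2.97 in knockout mice. The median of the members was -0.38, and 10 of 73 were above 0, beside 51.1% of all genes. DESeq2 called no member. Without the 4 libraries the median was 0.03, and the interaction of Cox7a2l was -0.16 (edgeR, adjusted p = 1). With the immunoglobulin share as a covariate the median was -0.01.

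Knockout and control mice were also compared at each time. These comparisons share their control and knockout mice with the time-of-day comparisons, so the values stand beside each other and are not independent. At ZT0 no member was called by edgeR, beside 0.00987% of all genes, and none by DESeq2. The median of the members was 0.14, with 62 of 73 above 0, beside 48.4% of all genes. Without the 4 libraries, of which knockout ZT0 replicate 3 is the one at ZT0, it was 0.02 with 46 of 73 above 0, and with the immunoglobulin share as a covariate it was -0.02 with 31 above 0. At an unadjusted p under 0.05 there were 3 members higher (Ndufa12, Ndufc2 and Ndufb5), beside 2.66% of all genes, and none lower, beside 2.24%. Ndufa13, an accessory subunit of complex I also known as Grim19, was 32.9 to 35.4 CPM in control mice (median 33.9) and 35.4, 36.6, 52.4 and 37.0 CPM in knockout mice, the 1 member (1.37%, beside 0.504% of all genes) whose groups did not overlap, by a margin under the printed digits. Its difference was 0.25 ± 0.17 (edgeR, adjusted p = 0.926).

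At ZT12 no member was called by edgeR, beside 0.0148% of all genes, and none by DESeq2. The median was -0.22, with 9 of 73 above 0, beside 48.7% of all genes. At an unadjusted p under 0.05 there were 19 members lower in the knockout, beside 4.58% of all genes, and none higher, beside 4.25%. Cox7a2l differed by -0.45 ± 0.17 (edgeR, adjusted p = 0.562). The exact permutation test gave p = 0.0693, and 0.205 after adjustment. Its high level in these control ZT12 mice was part of the choice of the set, which favours a lower knockout value. The difference and its p-values are therefore given as a description. Ndufb4, a complex I subunit, was 9.56 to 19.7 CPM in control mice (median 14.5) and 9.12 to 13.4 CPM in knockout mice (median 10.7), a difference of -0.44 ± 0.16 (edgeR, adjusted p = 0.562). Cox4i2 had the largest fitted value, -4.16 ± 1.397, from 5.35 CPM in 1 control mouse and at most 1.04 CPM in the others. Without the 4 libraries the median of the members at ZT12 was 0.07 with 49 of 73 above 0, and with the immunoglobulin share as a covariate -0.01 with 34 above 0.

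Other genes of the same pathway were counted from fixed lists in control ZT12 against ZT0 mice. ATP synthase, which uses the proton gradient, had 17 of 18 genes above 0 with a median of 0.32, close to the 0.33 of the members, and none was called. The 13 genes encoded in mitochondrial DNA had 10 above 0 and a median of 0.29, and their summed level was 5213 to 7982 CPM at ZT0 and 6041 to 13699 CPM at ZT12. The 13 genes of the TCA cycle, which feeds complexes I and II, had 8 above 0 and a median of 0.02, with summed levels of 555 to 579 CPM at ZT0 and 541 to 697 CPM at ZT12. Of 40 further assembly factors 25 were above 0, with a median of 0.09, of 14 genes of cytochrome c and mitochondrial import 13, with a median of 0.20, and of 13 regulators of mitochondrial biogenesis 4, with a median of -0.08. None of these genes was called by edgeR in control or knockout mice, nor in the interaction. In knockout mice the mitochondrially encoded genes had a median of 0.21 with 12 of 13 above 0, and ATP synthase a median of -0.06 with 7 of 18 above 0.

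Several of these lists also moved with the 4 libraries of high immunoglobulin share. The summed level of ATP synthase was 976 to 1181 CPM in the 4 and 739 to 1007 CPM in the other 17, and that of the mitochondrially encoded genes 6320 to 13699 CPM against 5213 to 8035 CPM. Without the 4 libraries ATP synthase had a median of 0.05 with 11 of 18 above 0, and the mitochondrially encoded genes had -0.15 with 3 of 13 above 0, a turn in direction. The further assembly factors then had a median of -0.07 with 14 of 40 above 0 and the biogenesis regulators 0.06 with 8 of 13 above 0, both also turned, while cytochrome c and import had 0.08 and the TCA cycle 0.02. Scaled by library totals alone, which moved the median of all genes to -0.20, the medians were 0.09 for ATP synthase, 0.03 for the mitochondrially encoded genes, -0.15 for the further assembly factors, -0.03 for cytochrome c and import, -0.18 for the TCA cycle and -0.28 for the regulators. In knockout mice the mitochondrially encoded genes had a median of 0.21 with 12 of 13 above 0 without the 4 libraries, as with them.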

How the data were processed

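Bulk RNA-seq counts were analysed for 21 mice. The values are raw counts per gene from poly-A libraries, deposited by the authors without normalization. The aligner, the counter, the genome build and the strand setting are not given in the sources used here, and the submitters' processing notes name DESeq2. Gene coordinates and lengths are those of the deposited table, which match GRCm38.

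Genes with a total under 10 counts were removed. TMM-normalized CPM and group means were computed with edgeR 4.0.16 in R 4.3.3 (robust quasi-likelihood, 4 group means, all 21 libraries). Calls were made at a Benjamini-Hochberg adjusted p under 0.05 over 20256 genes. CPM per kb is CPM divided by the deposited gene length. Alternatives were DESeq2 1.42.0, other scalings and count filters, fits on own groups, covariates (immunoglobulin share, Xist, epithelial markers), removal of immunoglobulin genes or a length trend, a stricter threshold, a replicate block and leaving out libraries. Scripts were tested on simulated data. Permutation tests used scipy 1.17.1. Promoters came from RefSeq (GRCm38.p6).

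The members, classes and lists were chosen with earlier results of these data known. Named genes were the called members, Cox7a2l with its paralogs, the highest, lowest and smallest-p member of each class, and the 3 smallest p in each other comparison. Ndufs3, Ndufa13, Sdhb and Cyc1 were added after their values were seen. Each library was 1 mouse. Intervals are normal approximations around the fitted difference, with the SE taken from the edgeR F test. They describe the uncertainty of a difference between group means, not the range of single mice.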

Additional observations from a re-analysis of the deposited data

Results flagged for a closer look

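In groups of 4 to 6 mice a value was singled out when its gap to the next mouse was a large part of the group's whole range (Dixon's criterion at 95%). This was looked at in 120 groups of named members, the summed level and the immunoglobulin share, and 11 values were singled out, where chance gives about 1 in 20 groups, or 6. Of the 11 values 5 lay in 1 library, knockout ZT0 replicate 3, which had 59.44% immunoglobulin counts, a summed member level of 2328 CPM, Ndufa1 at 66.03 CPM, Ndufb9 at 26.61 CPM and Cox4i2 at 0.667 CPM, each the highest of its 4 mice. Uqcrc1 stood apart in knockout ZT0 replicate 2, at 14.03 CPM. In control ZT12 mice Cox4i2 stood apart in replicate 2, at 5.348 CPM, and Cox7a1 in replicate 5, at 2.979 CPM. Uqcrh stood apart in control ZT0 replicate 4, at 31.19 CPM, and Cox5a in knockout ZT12 replicate 5, at 27.54 CPM. Cox6b2 was at 0.06164 CPM in knockout ZT12 replicate 1 and at 0 in the other 4 mice of that group.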

How the results depend on the processing

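The rise of Cox7a2l in control mice kept its direction in every alternative, and was called in all of them but the fit with the immunoglobulin share as a covariate. Since the gene was chosen for this rise, the alternatives describe its dependence on processing and add no support. The count of 3 members called there became 14 with DESeq2 and 0 with the immunoglobulin share as a covariate, which itself differed by time in control mice. It became 1 with library size only, with each comparison fitted on its own groups and with the epithelial marker level as a covariate. It also became 1 at an adjusted p under 0.01 and without the 4 libraries with the highest immunoglobulin share. Of all 20256 genes DESeq2 called 5.3%, library size only 2.2%, the epithelial covariate 0.548% and the fit without the 4 libraries 0.0444%. The median of 0.33 became 0.093 with library size only, where that of all genes was -0.20. It became -0.036 with the immunoglobulin share as a covariate, 0.078 with the length trend removed and 0.0081 without the 4 libraries. Leaving out 1 library at a time gave 1 to 16 members called and medians of 0.21 to 0.39. In knockout mice the count of 0 became 1 (Cox7a2l) without the 4 libraries, and medians ran from -0.10 to 0.05 with 1 library left out. The interaction median of -0.38 became -0.15, -0.0070, -0.087 and 0.035 under the same 4 settings in the same order. With library size only the interaction median of all genes was 0.19. The knockout against control median at ZT12 became 0.074 without the 4 libraries. At ZT0 that median of 0.14 ran from 0.020, without knockout ZT0 replicate 3, to 0.19 with 1 library left out. The causes were not tested.

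With library size only, where the median of all genes was -0.20, Cox6a1 (-0.069), Ndufaf8 (-0.12), Ndufc2 (-0.017), Ndufs1 (-0.15), Sdha (-0.16) and Sdhc (-0.0042) turned sign in control mice. With the immunoglobulin share as a covariate Cox6a1 (-0.14), Cox6c (-0.020), Ndufa11 (-0.062), Ndufa12 (-0.23), Ndufaf8 (-0.083), Ndufb9 (-0.11), Ndufc2 (-0.075), Sdhc (-0.051) and Uqcrc1 (0.46) did. With the length trend removed Cox6a1 (-0.20), Ndufaf8 (-0.19) and Ndufc2 (-0.13) did. Without the 4 libraries Cox6a1 (-0.10), Ndufa12 (-0.17), Ndufaf8 (-0.17), Ndufc2 (-0.041), Ndufs1 (-0.013), Sdhc (-0.0061) and Uqcrc1 (0.11) did. With 1 library left out Ndufaf8 ran from -0.014, without control ZT12 replicate 5, to 0.19. In knockout mice Ndufa6 ran from -0.046, without knockout ZT0 replicate 1, to 0.14, and was -0.013 without knockout ZT12 replicate 3, and Uqcrh ran from -0.0094, without knockout ZT0 replicate 1, to 0.20. None of these differences was called, here or in the reported fit.

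The replicate numbers are shared between groups, and the sources used here do not say that they pair the mice. Over 28 same-numbered pairs the correlation of deviations ran from -0.41 to 0.41, with 10 pairs over 0.1. Of 21 libraries 5 were closest to their own number. Shared litters or sort days that the numbers do not code were not tested. With the number as a replicate block 3 members were called in control mice, as without it, with a median of 0.32. At 25558 to 46387 counts on the members per library, the tissue isoforms, with 28 to 633 counts in all, are limited by depth.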

Other observations

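Cox7a2l has Eml4 as its nearest tested protein-coding neighbour on 1 side, 21558 bases away on the opposite strand, and Kcng3 on the other, 71624 bases away with 76 counts in all. Eml4 differed by -0.39 ± 0.12 on the log2 scale between control ZT12 and ZT0 mice (edgeR, adjusted p = 0.106), the opposite sign to Cox7a2l. The 73 members lie on 18 chromosomes, at most 8 on any one (chromosome 7), and 3 on the X chromosome (Cox7b, Ndufa1 and Ndufb11). The processed pseudogene Ndufab1-ps, whose name matches the rule but which is not protein coding, held 353 counts.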
